A study of Mus musculus with 568 samples.

Results

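Expression of autosomal genes was compared between XGFP− and XGFP+ primordial germ cell-like cells (PGCLCs), which are germ cell precursors made from embryonic stem cells in culture. The genes compared were those on autosomes with a mean normalized count above 10 over the 16 bulk RNA-seq libraries of the study, and 15316 of the 16335 genes in the table met this rule. All cells came from a female F2 hybrid embryonic stem cell (ESC) line with a mus and a cas X chromosome. Alleles were told apart by variants of 129S1/SvImJ (mus) and CAST/EiJ (cas). The paper describes chromosome 13 as fully hybrid, and an F2 line need not be so on every autosome. In this line Tsix is truncated on X mus, a GFP cassette sits in Hprt on X mus, and a tdTomato cassette sits in Hprt on X cas, so that GFP reports the activity of X mus. All groups also carry rtTA at Rosa26 and doxycycline-inducible Prdm1, Prdm14 and Tfap2c transgenes. Epiblast-like cells (EpiLCs) were made from ESCs over consecutive steps of 48 h each, and PGCLCs were aggregated from EpiLCs for 5 days with doxycycline at 1.5 µg/ml. Both PGCLC sorts were CD61+, SSEA1+ and XTomato+, and differed in the gate for GFP. The groups held 4 libraries each, XGFP+ PGCLCs, XGFP− PGCLCs, ESCs and EpiLCs, with 29.8 to 46.5 M reads on genes per library. The study describes its replicates as clones with technical replicates, while the sample labels name no clone, so p-values measure the spread between these libraries only, which may be partly technical, and may be too small. Fewer cells of a type and less RNA per cell cannot be told apart in such bulk libraries.

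Primordial germ cells are the embryonic founders of eggs and sperm. As they form they repress somatic genes, keep a core of pluripotency factors, and lose much of their DNA methylation, including that at imprinted genes, which are read from the maternal or the paternal copy alone. Many genes of later germ cell life carry a methylated promoter in other cells and become readable once that mark is gone, and KRAB zinc finger proteins, a large mouse family that sits in tandem arrays, hold methylation at selected places in the genome.

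Values are read counts that were divided by a size factor for each library, called normalized counts here. A difference is the XGFP− minus the XGFP+ mean of log2(normalized count + 1), which understates the change of weakly expressed genes, and folds are ratios of group means. Values of single libraries are in the order of replicates 1 to 4, and a pair of means gives XGFP+ first. Genes were called with limma at a Benjamini-Hochberg adjusted p below 0.001 over the whole table. Of the 15316 genes, 1786 rose in XGFP− PGCLCs, which is 11.7% of those tested, and 1782 fell, which is 11.6%. The other 11748 were not called. Counts of lists and families below are to be read against these shares. Where none of a group is said to have risen or fallen, this is the limma call, and edgeR and DESeq2 made none in that direction either unless stated. The median difference over all autosomal genes was 0.03 on the log2 scale. A difference above 1 was found for 632 of the genes that rose and for 1032 of those that fell. The values of all 4 XGFP− libraries lay above those of all 4 XGFP+ libraries for 3803 genes (24.8%) and below for 3193 (20.8%). The share of genes that rose ran from 9.36% on chromosome 4 to 14.5% on chromosome 12, and the share that fell from 9.61% on chromosome 17 to 14% on chromosome 4.

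**Figure D1:**
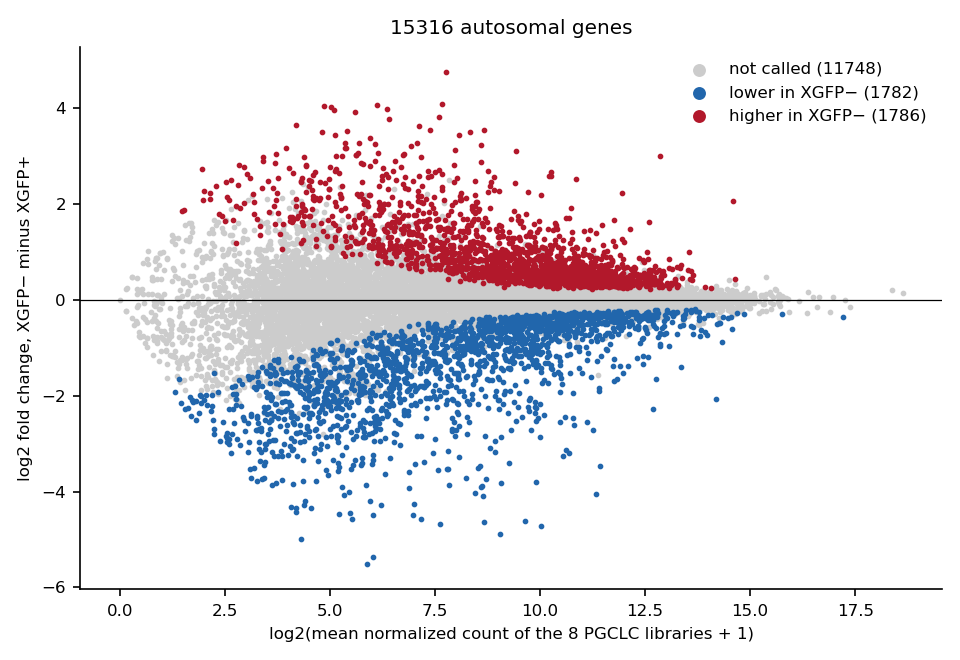
Difference between XGFP− and XGFP+ PGCLCs on the log2 scale (vertical) against the mean level of the 8 PGCLC libraries (horizontal, log2 of the normalized count + 1) for each of the 15316 autosomal genes, coloured by call. Genes that rose (1786) and fell (1782) lie across the range of levels, and more of those that fell (1032) than of those that rose (632) differ by more than 1.

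The called genes were also placed against ESCs and EpiLCs, as a description, since the 4 groups share a normalization. Of the 1786 genes that rose, 810 (45.4%) were called lower in ESCs than in EpiLCs and 307 (17.2%) higher. Of the 1782 genes that fell, 714 (40.1%) were called higher in ESCs than in EpiLCs and 325 (18.2%) lower. Of the 11748 genes that were not called, 2746 (23.4%) were lower and 2454 (20.9%) higher in ESCs. The XGFP− mean exceeded both the ESC and the EpiLC mean for 1282 of the genes that rose and was below both for 1380 of those that fell, while of the genes not called it was above both for 4527 and below both for 4359. The calls in part fix these counts, since they pick genes with high or low XGFP− values. The XGFP+ mean was itself above both for 768 of the genes that rose and below both for 746 of those that fell. By kind of transcript, 1711 of 13237 protein coding genes rose and 1626 fell. Of 940 processed pseudogenes 4 rose and 43 fell, and of 43 unprocessed pseudogenes none rose (1 at an unadjusted p below 0.05) and 11 fell.

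The germ cell label was checked on genes that define these cells. Of 18 tested genes of germ cell identity, 2 rose and 2 fell, against 11.7% and 11.6% of all genes. The count that rose was 4 with edgeR, 5 with DESeq2, 6 in the 8 PGCLC libraries alone and 8 there with the replicate number as a block, and the count that fell was 3, 3, 4 and 5. The specification factor Prdm1 had a mean of 4013 ± 149 (SD, n = 4) normalized counts in XGFP+ and 6959 ± 365 in XGFP− PGCLCs, against 260.3 in EpiLCs, and was not called (difference 0.79 ± 0.18, SE, adjusted p = 0.00143). Prdm14 had 3411 and 4291 and Tfap2c 4799 and 5979, neither called, although all 4 XGFP− values lay above all 4 XGFP+ values for each of the 3 factors. Prdm1 passed the threshold with edgeR (adjusted p = 0.000454) and DESeq2 (1.35e-05), with the 8 PGCLC libraries alone (5.38e-07) and without EpiLC replicate 1 (0.000334) or 4 (5.33e-05) or ESC replicate 2 (0.000962), and Prdm14 with the 8 PGCLC libraries (0.000782). With the replicate number as a block in those 8 libraries Prdm1 (adjusted p = 5.91e-08), Prdm14 (6.26e-05), Tfap2c (7.95e-05) and Sall4 (3.78e-05) were called. The counts do not separate these endogenous genes from the transgenes. Kit, the receptor for stem cell factor, rose from 10539 to 15057, a call that was lost without XGFP+ replicate 1 or 2 or XGFP− replicate 4 (adjusted p up to 0.00113), and Dnd1, an RNA-binding protein that germ cells need to survive, rose from 2366 to 3624. Dppa3, which guards early germ cells and oocytes against methylation, fell from 9728 to 5197, and Cd38, a surface ectoenzyme, from 594 to 239. The pluripotency factors Pou5f1, Sox2 and Sall4 had XGFP+ means of 17702, 10600 and 16904 and were not called, with differences of 0.15, 0.11 and 0.29. For Sall4 the 8 PGCLC libraries alone gave a call (adjusted p = 0.000814).

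The largest increases and decreases include the 4 genes that mark the contrast. These largest changes were picked among genes without overlap between the sorts, so that the absence of overlap was fixed by the choice. Slc39a8 (chr3:135825279-135888572, mm10, plus strand), which imports zinc, manganese and iron, had 21.8, 18.8, 9.57 and 8.96 normalized counts in XGFP+ replicates 1 to 4 and 594, 493, 325 and 266 in XGFP− replicates 1 to 4. Sp8 (chr12:118846329-118852576, plus strand), a transcription factor of limb and brain patterning, had 29.9, 25.03, 16.3 and 16.1 in XGFP+ and 465, 479, 284 and 303 in XGFP− libraries. Every XGFP− value of both genes was far above every XGFP+ value, and within each sort replicates 1 and 2 held more than replicates 3 and 4. Slc39a8 rose by 4.76 ± 0.35 (SE, adjusted p = 7.2e-09) and Sp8 by 4.08 ± 0.24 (adjusted p = 3.8e-10) on the log2 scale. In EpiLCs the means were 169.6 ± 17.4 for Slc39a8 and 387 ± 103.4 for Sp8, and in ESCs 6.89 ± 3.44 and 24.7 ± 3.88, so that for Sp8 XGFP+ PGCLCs were near the ESC mean and XGFP− PGCLCs near the EpiLC mean.

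Klf9 (chr19:23141226-23168134, plus strand), a zinc finger factor that responds to glucocorticoid and thyroid hormone, had 1347, 1237, 705 and 803 normalized counts in XGFP+ and 33.8, 34.5, 24.05 and 40.2 in XGFP− libraries. Zfp57 (chr17:37001163-37010635, plus strand), the KRAB zinc finger protein that keeps methylation at imprinting control regions, had 2415, 2524, 1471 and 1603 in XGFP+ and 63.3, 70.1, 75.98 and 86.6 in XGFP− libraries. The sorts were far apart for both genes, and the XGFP− libraries were alike. Klf9 fell by 4.88 ± 0.17 (adjusted p = 1.5e-12) and Zfp57 fell by 4.71 ± 0.17 (adjusted p = 2.3e-12) on the log2 scale. Both were higher in ESCs, at 7442 ± 593 and 21963 ± 985, than in either PGCLC sort, and EpiLCs held 3613 ± 284 and 1513 ± 393, so that XGFP− PGCLCs had the lowest level of the 4 groups.

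**Figure D2:**
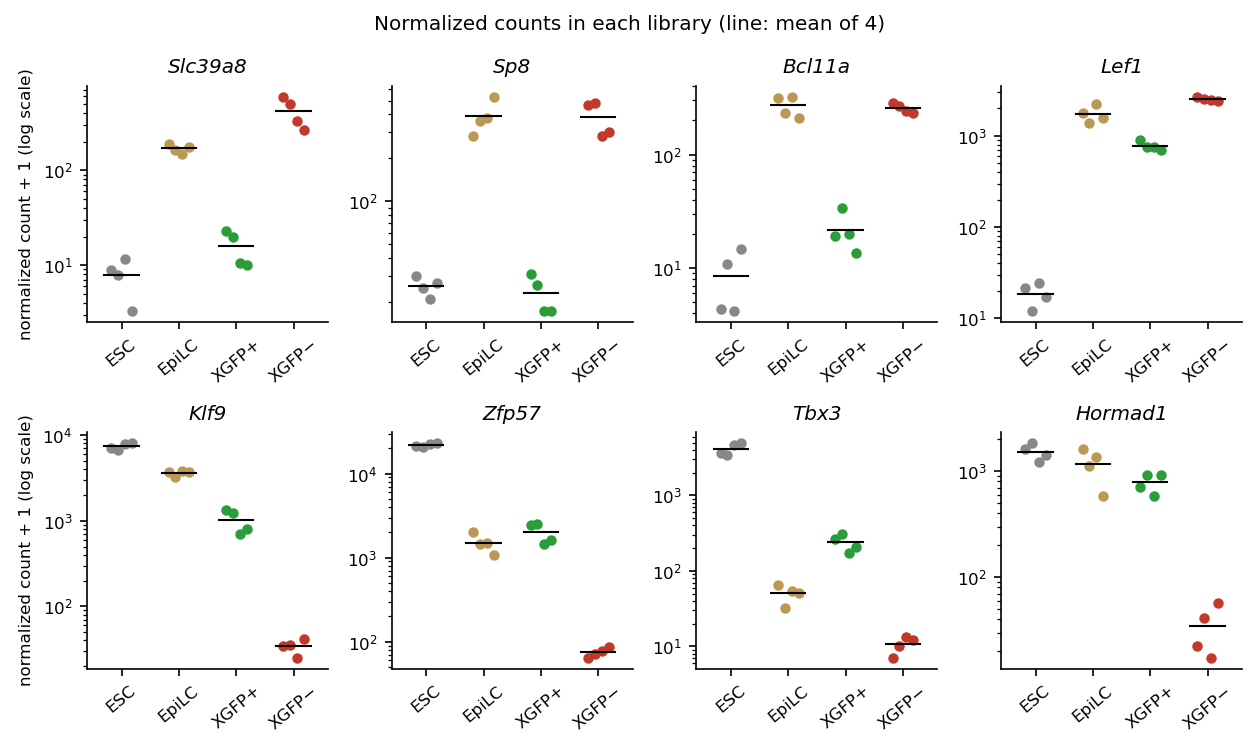
Normalized counts (vertical, count + 1 on a log scale) of 8 genes in each library, grouped as ESCs, EpiLCs and both PGCLC sorts, with a line at the mean of 4. Slc39a8, Sp8, Bcl11a and Lef1 are higher in all 4 XGFP− libraries than in all XGFP+ libraries, Klf9, Zfp57, Tbx3 and Hormad1 are lower, and no gene shown overlaps between the 2 sorts. For all of them but Lef1 the absence of overlap was fixed by the rule that picked the largest changes.

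Other genes with large increases came from several families. Bcl11a, a zinc finger repressor known for silencing fetal globin, had 18.1, 32.5, 19.14 and 12.5 normalized counts in XGFP+ and 282, 265, 239 and 231 in XGFP− libraries, near the EpiLC mean of 269.9. Its difference was 3.64 ± 0.35 (adjusted p = 1.4e-07). Igsf11, an adhesion molecule of the immunoglobulin superfamily, had 54.4, 55.1, 67 and 34.03 in XGFP+ and 581, 654, 559 and 565 in XGFP− libraries, while EpiLCs and ESCs held 24.2 and 5.75 on average. It rose by 3.499 ± 0.35 (adjusted p = 2.5e-07) to a level that no other group reached. Slc15a2, a transporter of short peptides, rose 9.52-fold from 73.8 to 702, and Nbl1, a secreted BMP antagonist, 9.53-fold from 22.98 to 219. Pamr1 rose 13.2-fold, the axon guidance gene Sema5a 11.99-fold, the zinc finger homeobox gene Zfhx4 11.1-fold, and Maml3, a coactivator of NOTCH, 9.83-fold.

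Among the large decreases were genes known from naive stem cells and germ cells. Tbx3, a T-box factor of naive pluripotency, had 268, 312, 171 and 207 normalized counts in XGFP+ and 6.07, 9.14, 12.5 and 11.3 in XGFP− libraries, and fell by 4.49 ± 0.23 (adjusted p = 1.3e-10), with 4156 in ESCs and 49.5 in EpiLCs. Lncenc1, a long non-coding RNA of naive stem cells, fell 23.6-fold from 1538 to 65.3. Nlrp4f, an NLR family gene known from oocytes, fell 20.4-fold from 243 to 11.9, and its copies elsewhere in the genome could share reads with it. Dazl, a translation regulator of germ cells, had 2875, 4941, 3276 and 8074 normalized counts in XGFP+ and 128.2, 298, 162 and 803 in XGFP− libraries. The sorts did not overlap, which the choice of the largest decreases required, and in both of them replicate 4 was the highest and replicate 1 the lowest. Dazl fell by 4.05 ± 0.42 on the log2 scale (adjusted p = 3.4e-07).

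Imprinted genes moved in both directions. Of 46 tested, 8 rose and 6 fell, with a median difference of 0.02, against 11.7%, 11.6% and 0.03 over all genes. H19 (chr7:142575529-142578143, minus strand), a maternally expressed RNA, had 1587, 1925, 1696 and 1342 normalized counts in XGFP+ and 12417, 14693, 12842 and 12432 in XGFP− libraries. Its lowest XGFP− value was more than 6 times its highest XGFP+ value, and it rose by 3.01 ± 0.20 (adjusted p = 1.5e-09). ESCs held 74.8 and EpiLCs 685, both below the PGCLCs. The neighbouring growth factor gene Igf2, which is paternally expressed, had 56.2, 70.1, 20.1 and 28.7 in XGFP+ and 85.8, 55.9, 86.6 and 56.7 in XGFP− libraries, which overlapped, and it was not called (difference 0.82 ± 0.32, adjusted p = 0.0409).

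Peg3 (chr7:6703892-6730431, minus strand), a paternally expressed zinc finger gene, had 9780.4, 9092, 10668 and 8928 normalized counts in XGFP+ and 40915, 40732, 41665 and 37029 in XGFP− libraries, a rise of 2.06 ± 0.092 (adjusted p = 1.4e-11) between tightly grouped values. Usp29 (chr7:6730578-6967219, plus strand), which starts beside Peg3 on the other strand and is also paternally expressed, had 303, 401, 376 and 513 in XGFP+ and 89.3, 113.8, 129.8 and 177 in XGFP− libraries. It fell by 1.65 ± 0.22 (adjusted p = 5.8e-06), so that the 2 neighbours moved in opposite directions. At the Grb10 cluster on chromosome 11, Cobl, an actin nucleator, fell 17.9-fold from 758 to 42.4, and the growth factor receptor adaptor Grb10 from 66.1 to 5.55. Igf2r, a clearance receptor for IGF2, was the most abundant imprinted gene without a call, at 16617 and 16013. Its antisense partner Airn rose from 8.36 to 27.4, a call lost with edgeR (adjusted p = 0.00147), in the 8 PGCLC libraries alone, and without any PGCLC library but XGFP+ replicates 3 and 4 (up to 0.0029). The strand setting of the counting was not given in the sources used here, so that reads of Airn and Igf2r may not be separated. Without XGFP− replicate 2 only 4 of the 8 imprinted genes that rose were called, without XGFP+ replicate 1 or 2 or XGFP− replicate 1 or 3 there were 5.

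At the Dlk1-Dio3 imprinted region many maternally expressed non-coding RNAs rose, and neither of the paternally expressed protein genes described did. Meg3 (chr12:109541001-109571726, plus strand) had 511, 421, 279 and 176 normalized counts in XGFP+ and 2959, 2039, 2211 and 1277 in XGFP− libraries and rose by 2.66 ± 0.26 (adjusted p = 2.1e-07). Its EpiLC mean was 13719 ± 1686 and its ESC mean 1929.9 ± 322, so that XGFP− PGCLCs were near the ESC level and XGFP+ PGCLCs below it. Dio3, a paternally expressed deiodinase that inactivates thyroid hormone, fell from 59.01 to 21.9, and the paternally expressed Dlk1 was near 0 in both sorts (1.94 and 0.512) and not called. From Meg3 to Mir3072 the table held 58 tested genes in chr12:109541001-109747960, a stretch picked after its values were seen, of which 27 rose and none fell, with none at an unadjusted p below 0.05 on the lower side. All 58 differences were above 0, with a median of 1.595. Of 36 miRNA genes 17 rose and of 21 snoRNA genes 9 rose. The counts of the 58 genes summed to 725, 569, 412 and 258 in XGFP+ and 3892, 2733, 3077 and 1811 in XGFP− libraries, with a mean of 24331 in EpiLCs and 3403 in ESCs. All 4 XGFP− sums were above the XGFP+ sums. The number called was 16 with edgeR, 19 with DESeq2, 8 in the 8 PGCLC libraries alone, 17 without XGFP− replicate 3, and 10 with the replicate number as a block in those 8 libraries, while Meg3 itself was called in each of these. Most of these genes lie within long host transcripts, and total RNA libraries count reads over hairpins and hosts, not mature miRNAs.

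The mature sequences of 6 miRNAs of this stretch are given to show their seeds, the bases that pair with targets. RefSeq (GRCm38.p6) held mature sequences for all 36 miRNA genes of this stretch, 67 in all with 60 different seeds, and capitals mark the seed, bases 2 to 8. The first 4 belong to genes that rose and were chosen after their values were seen, and the last pair is shown because Mir453 and Mir496a share the seed GGUUGCC, the only shared seed whose genes all rose.
mmu-miR-127-3p: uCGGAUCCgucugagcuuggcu
mmu-miR-134-5p: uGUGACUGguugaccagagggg
mmu-miR-382-5p: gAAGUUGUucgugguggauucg
mmu-miR-377-3p: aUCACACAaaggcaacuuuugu
mmu-miR-453: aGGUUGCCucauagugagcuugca
mmu-miR-496a-5p: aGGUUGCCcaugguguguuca

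The hairpin genes of these miRNAs had few reads. Mir127 (chr12:109592846-109592915) had 2.72, 3.75, 4.79 and 2.69 normalized counts in XGFP+ and 34.7, 12.2, 24.05 and 14.4 in XGFP− libraries, and Mir134 had 8.16, 3.75, 1.91 and 0.896 in XGFP+ and 25.1, 13.2, 24.05 and 15.5 in XGFP− libraries. Mir382 had 8.16, 1.25, 9.57 and 2.69 in XGFP+ and 40.7, 26.4, 49.1 and 12.4 in XGFP− libraries. The sorts did not overlap for any of the 3, and all were far below their EpiLC means of 389, 181 and 296. The differences were 2.23 ± 0.31, 2.33 ± 0.41 and 2.47 ± 0.45 (adjusted p = 1e-05, 0.00013 and 0.00019). Mir453 had 2.72, 1.25, 3.83 and 0.896 in XGFP+ and 13, 13.2, 7.69 and 11.3 in XGFP− libraries (difference 2.03 ± 0.31, adjusted p = 3.3e-05). Mir496a had 0.907, 0, 0 and 0 in XGFP+ and 6.07, 2.03, 2.89 and 3.09 in XGFP− libraries, too few reads for a fold. Mir377 had a difference of 1.78 ± 0.35 (adjusted p = 0.00034). In the 8 PGCLC libraries alone Mir134 (adjusted p = 0.00136), Mir377 (0.00387), Mir382 (0.00263) and Mir496a (0.00464) were not called, and with the block in them Mir377 (0.0024), Mir453 (0.00119) and Mir496a (0.00595) were not. Mir377 was also lost with edgeR (0.00162), and Mir496a with edgeR (0.00257) and DESeq2 (0.00389). Leaving out single libraries ended the call of Mir377 (XGFP+ replicate 1, 3 or 4, XGFP− replicate 2 or 3, adjusted p up to 0.00164), Mir382 (XGFP− replicate 1 or 3, up to 0.00109) and Mir496a (XGFP− replicate 1, 0.00102).

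The miRNA genes inside Sfmbt2 had lower values in XGFP− PGCLCs. Sfmbt2 (chr2:10370510-10595253, plus strand), a paternally expressed Polycomb-related gene needed in the placenta, had 8392, 10489, 7566 and 12604 normalized counts in XGFP+ and 3945, 5781, 3753 and 6708 in XGFP− libraries and fell by 0.97 ± 0.21 (adjusted p = 0.0008). The sorts did not overlap, and in each of them replicates 2 and 4 were above 1 and 3. Its call was lost in the 8 PGCLC libraries alone, and without any of XGFP+ replicates 1, 2 and 4, XGFP− replicates 1, 2 and 3, EpiLC replicates 2 and 3, and ESC replicates 1 and 4 (adjusted p from 0.00109 to 0.00416). In chr2:10465287-10518279, within this gene, 73 miRNA genes were tested, all had a difference below 0 (median −1.72), and 24 fell, a stretch picked after its values were seen. Their summed counts were 3708, 5624, 3717 and 8135 in XGFP+ and 920.3, 1812, 1086 and 2824 in XGFP− libraries, against a mean of 764 in EpiLCs and 1101 in ESCs. Replicates 2 and 4 were again above 1 and 3 in each sort, and every XGFP− sum was below every XGFP+ sum. These hairpins are near copies of each other that share reads, so that single genes are uncertain, and the number called moved from 5 without XGFP+ replicate 4 or XGFP− replicate 1, 7 without XGFP+ replicate 2, 8 without XGFP− replicate 3 and 15 without XGFP− replicate 2 to 42 without XGFP− replicate 4. It was 33 and 72 with the replicate number as a block in 16 and in 8 libraries.

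**Figure D3:**
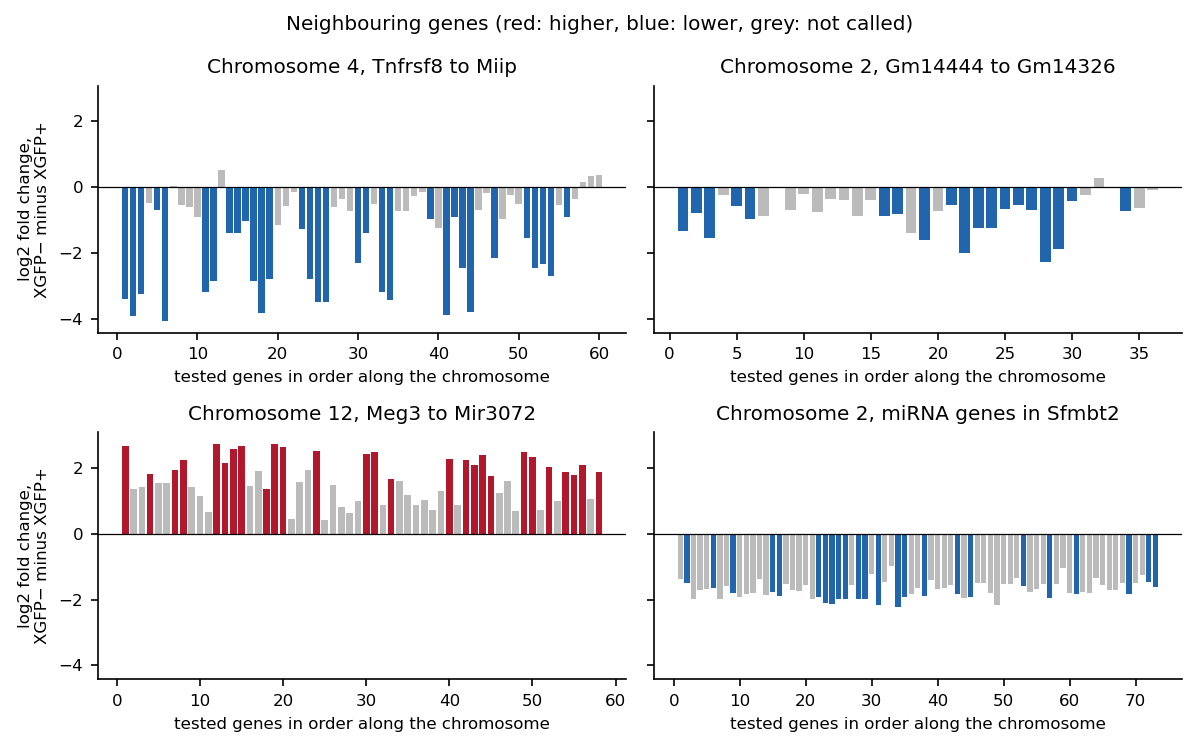
Difference between XGFP− and XGFP+ PGCLCs on the log2 scale (bars, 1 per tested gene, in order along the chromosome) for the zinc finger blocks of chromosomes 4 and 2, the stretch from Meg3 to Mir3072, and the miRNA genes within Sfmbt2, coloured by call. All 58 bars from Meg3 to Mir3072 point up and all 73 bars of the Sfmbt2 locus point down.

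Zinc finger genes changed in both directions, and some of those that fell lay in tandem blocks. Of 335 genes named Zfp, 55 (16.4%) rose and 35 (10.4%) fell, against 11.7% and 11.6% of all genes, with a median of 0.13. On chromosome 4, 60 tested genes in chr4:145410245-147848366 (from Platr16 to Zfp933) held 32 that fell and none that rose (3 at an unadjusted p below 0.05 on the upper side), with a median of −1.003, a block picked after its values were seen. Of 18 genes named Zfp in it 15 fell, and the other 20 that fell lay elsewhere, as did all 55 that rose, which the choice of the block in part fixes. Summed over the block, counts were 37310, 54370, 39200 and 55834 in XGFP+ and 14171, 17589, 15981 and 21228 in XGFP− libraries, with 37197 in EpiLCs and 50175 in ESCs. Every XGFP− sum was below every other sum of the 16 libraries, and replicates 2 and 4 were above 1 and 3 in both PGCLC sorts.

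Within this block the falls were large for some genes and small for others. Zfp600 had 749, 1192, 789 and 1299 normalized counts in XGFP+ and 39, 68.1, 74.1 and 110.3 in XGFP− libraries, and fell by 3.82 ± 0.24 (adjusted p = 9.8e-10). Zfp978 had 1462, 1991, 1636 and 2048 in XGFP+ and 86.7, 104.7, 126.96 and 219 in XGFP− libraries, and fell by 3.80 ± 0.20 (adjusted p = 1.4e-10). Rex2, a zinc finger gene of embryonic stem cells, fell 10.5-fold, Zfp981 10.4-fold and Zfp980 8.48-fold, while Zfp984 was at 3951 and 3051 and was not called (adjusted p = 0.0046, or 0.000144 with the replicate number as a block). The XGFP+ means of these 6 genes lay between the EpiLC and ESC means, or above both for Zfp981. Of 34 pseudogenes in the block 13 fell. These paralogues are near-identical, so that reads may be split between them and single genes are uncertain.

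Other blocks of neighbouring genes were seen on chromosomes 2, 13, 12 and 17, all picked after their values were seen. The genes counted on chromosome 12 were models without a family name, and those on chromosome 17 were Zfp57 and genes of other families. In chr2:175010241-177957297, 36 zinc finger genes and related models held 19 that fell and none that rose, with a median of −0.72. On chromosome 13 all 4 tested genes in chr13:66119547-66698243 fell (median −2.51), while in the next array, chr13:67038596-67844035, 5 of 23 rose and none fell with limma (2 at an unadjusted p below 0.05, none with edgeR, 2 with DESeq2, median 0.35), among them Zfp458, from 65.1 to 199. The count of 5 in that array was 3 without XGFP+ replicate 1, 2 or 3 or XGFP− replicate 1, 2 or 4. In chr12:18514510-20896638 all 6 tested genes fell, with a median of −2.36. Outside the arrays Zfp629 rose from 299 to 790.4 and Zfp651 from 141.8 to 345. Trim28, the common corepressor of KRAB zinc finger proteins, was at 49203 and 42855 and was not called. Without XGFP− replicate 2 the number of Zfp genes that rose was 34 in place of 55. Bcl genes, named for lymphoma genes of unrelated families, were picked for their high share of genes that rose. They had 9 of 18 that rose and none that fell (1 at an unadjusted p below 0.05), and the zinc finger repressor Bcl6b rose from 31.7 to 189.

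SCAN domain zinc finger genes named Zkscan stood on the upper side as well. This family was picked for its high share of genes that rose, which in part fixes its counts. Of 11 tested 7 rose and none fell (none at an unadjusted p below 0.05), all 11 differences were above 0, and the median was 0.55. Zkscan7 had 90.7, 90.1, 107.2 and 110.2 normalized counts in XGFP+ and 311, 346, 220.2 and 288 in XGFP− libraries, and Zkscan2 had 105.2, 88.9, 88.1 and 71.7 in XGFP+ and 209, 241, 202 and 191 in XGFP− libraries. Neither overlapped between the sorts, and both rose (differences 1.53 ± 0.21 and 1.25 ± 0.15, adjusted p = 1.2e-05 and 1.6e-06).

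The block on chromosome 17 held Zfp57 and its neighbours. In chr17:36969195-37075067, 5 genes in a row were tested, H2-M6-ps, 2410137M14Rik, H2-M5, Zfp57 and Gabbr1, and all 5 fell, with a median of −4.57. H2-M5, a non-classical MHC class I gene, had 127.9, 171, 60.3 and 95.8 normalized counts in XGFP+ and 0.867, 7.11, 0.962 and 0 in XGFP− libraries. Gabbr1, a subunit of the GABA B receptor, had 281, 432, 140.7 and 255 in XGFP+ and 13, 17.3, 9.62 and 4.12 in XGFP− libraries and fell by 4.57 ± 0.33 (adjusted p = 4.6e-09). Summed over the 5 genes, counts were 2889, 3199, 1699 and 2006 in XGFP+ and 77.99, 96.5, 87.5 and 91.7 in XGFP− libraries, against 24477 ± 1013 (SD, n = 4) in ESCs and 1964 ± 462 in EpiLCs. The highest XGFP− sum was 96.5 and the lowest sum of the other libraries 1393.

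**Figure D4:**
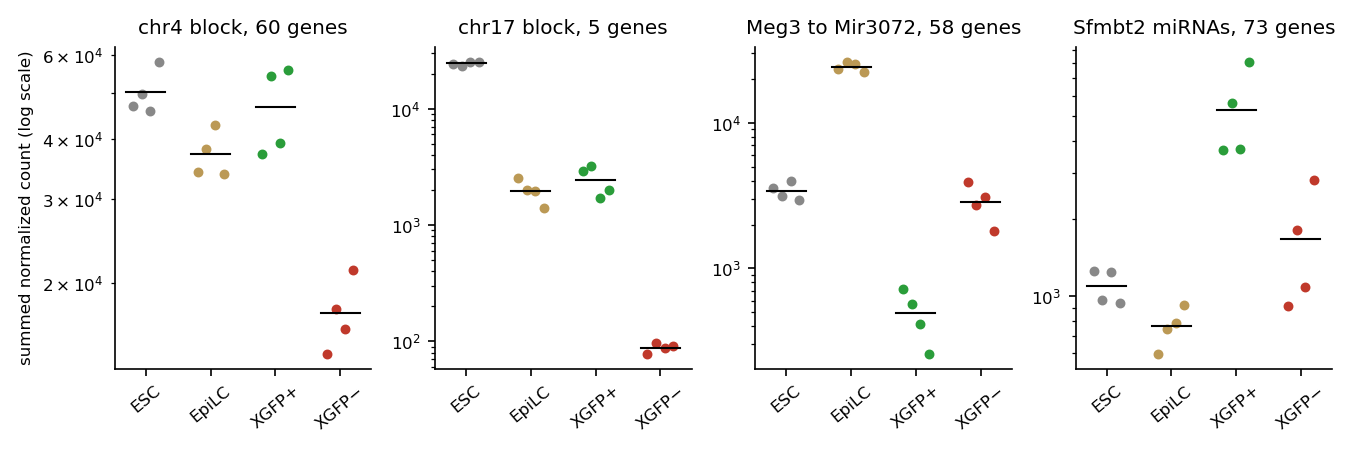
Summed normalized counts (vertical, log scale) of 4 groups of neighbouring genes in each of the 16 libraries of ESCs, EpiLCs, XGFP+ and XGFP− PGCLCs. XGFP− sums lie below all other libraries for the chromosome 4 and chromosome 17 blocks, above XGFP+ and below EpiLCs for Meg3 to Mir3072, and below XGFP+ for the Sfmbt2 miRNA genes.

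Genes of later germ cell life that are under promoter methylation in other cells had the lowest median of the lists examined. Of 39 tested, 29 fell and 1 rose, with a median of −2.05. Hormad1 (chr3:95559677-95587671, plus strand), a protein of the meiotic chromosome axis, had 702, 924, 583 and 910.0 normalized counts in XGFP+ and 21.7, 40.6, 16.4 and 55.7 in XGFP− libraries, and fell by 4.63 ± 0.32 (adjusted p = 3.4e-09). Slc25a31 (chr3:40708855-40726096, plus strand), a testis-type ADP/ATP carrier of mitochondria, had 109.7, 127.7, 101.5 and 150.5 in XGFP+ and 17.3, 17.3, 15.4 and 31.95 in XGFP− libraries and fell by 2.56 ± 0.25 (adjusted p = 2.1e-07). Ddx4 (chr13:112598333-112652475, minus strand), the VASA helicase, had 429, 471, 429.8 and 513 in XGFP+ and 186, 188, 219 and 301 in XGFP− libraries and fell by 1.06 ± 0.15 (adjusted p = 1.9e-05). No gene of the 3 overlapped between the sorts, which for Hormad1 the choice of the largest decreases required.

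The promoters of these 3 genes are shown because they were the ones, among germ line genes that fell, that held both motifs searched, the E-box CACGTG and the E2F-type motif GGCGGGAA, on either strand (TTCCCGCC on the other). Each line gives 250 bases before to 50 bases after the gene start of RefSeq (GRCm38.p6), which lies 165 bases (Ddx4) and 16 bases (Slc25a31) downstream of the start given above from GENCODE and is the same for Hormad1, 5′ to 3′ on the strand of the gene, and capitals mark the motifs. The windows are chr13:112652261-112652560 (minus), chr3:95559427-95559726 (plus) and chr3:40708621-40708920 (plus).
Ddx4: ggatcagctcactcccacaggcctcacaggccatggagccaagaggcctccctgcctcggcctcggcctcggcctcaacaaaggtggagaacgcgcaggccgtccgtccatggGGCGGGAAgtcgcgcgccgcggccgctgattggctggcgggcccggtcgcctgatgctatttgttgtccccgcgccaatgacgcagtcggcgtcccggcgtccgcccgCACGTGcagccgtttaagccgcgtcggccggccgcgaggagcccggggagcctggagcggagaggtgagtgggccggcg
Hormad1: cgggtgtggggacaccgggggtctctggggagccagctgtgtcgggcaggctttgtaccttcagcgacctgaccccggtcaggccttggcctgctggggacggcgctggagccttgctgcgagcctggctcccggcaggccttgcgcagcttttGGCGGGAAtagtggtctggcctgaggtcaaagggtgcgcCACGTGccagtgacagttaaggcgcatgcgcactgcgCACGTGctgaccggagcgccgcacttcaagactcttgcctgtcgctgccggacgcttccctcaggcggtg
Slc25a31: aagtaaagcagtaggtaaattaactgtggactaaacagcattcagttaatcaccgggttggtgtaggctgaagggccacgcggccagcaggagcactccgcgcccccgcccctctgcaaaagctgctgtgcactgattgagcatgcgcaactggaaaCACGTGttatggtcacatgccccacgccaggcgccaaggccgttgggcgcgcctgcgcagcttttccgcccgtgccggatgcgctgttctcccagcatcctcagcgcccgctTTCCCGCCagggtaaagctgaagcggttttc

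Among 26 germ line genes that fell and had a promoter in the reference table, of 29, the E-box was in 11 (42.3%) and the E2F-type motif in 6 (23.1%). Over all 10657 promoters of tested autosomal genes the shares were 10.1% and 4.11%, over those of genes that rose 8.45% and 4.08%, and over those of genes that fell 9.07% and 3.64%. A match describes these letters only and is no site shown to be bound.

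Further germ line genes of the list fell. Tex19.1, which restrains transposons in germ cells and placenta, had 1689.5, 1861, 1286 and 1485 normalized counts in XGFP+ and 236, 312, 251 and 459 in XGFP− libraries, and fell by 2.36 ± 0.23 (adjusted p = 1.4e-07). Piwil2, a PIWI protein of the piRNA pathway, fell 2.65-fold from 1801 to 679, and Mael, another piRNA pathway gene chosen after its value was seen, 5.10-fold from 181 to 35.6. Stag3, a meiotic cohesin subunit, was the most abundant member without a call, at 2378 and 1547 (adjusted p = 0.0174, or 2.92e-07 with the replicate number as a block in the 8 PGCLC libraries), with all XGFP− values below all XGFP+ values. Hspb11, a protein of the ciliary transport complex, was the member that rose, from 133.6 to 438.

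Genes of the DNA methylation machinery changed in both directions. The list includes Zfp57, described above, and after it the largest falls described were those of Dnmt3l and Dnmt3b. Of 26 tested genes 4 rose and 8 fell, with a median of −0.15. Dnmt3l, a cofactor of the de novo enzymes, had 3560.3, 2350.5, 2934 and 1935 normalized counts in XGFP+ and 327, 261, 284 and 225 in XGFP− libraries, and Dnmt3b, a de novo methyltransferase, had 1179.8, 1379, 907 and 1224 in XGFP+ and 173, 201.2, 192 and 245 in XGFP− libraries. The sorts were well apart for both, and both fell (differences −3.27 ± 0.19 and −2.52 ± 0.13, adjusted p = 4.6e-10 and 1.5e-10). Dnmt3b in EpiLCs was at 46987, far above either sort. Uhrf1, which brings maintenance methylation to replicated DNA, had 3966, 3432, 3042 and 3032 in XGFP+ and 1988, 1798, 2075 and 1541 in XGFP− libraries and fell by 0.86 ± 0.088 (adjusted p = 3.2e-07). Dnmt3a was at 2176 and 2549 and Dnmt1, the maintenance enzyme, at 22627 and 23895, neither called. The 4 members that rose, Mbd2, Tdg, Uhrf2 and Zfp445, differed by 0.56, 0.38, 0.36 and 0.23. None was called without XGFP+ replicate 2, 1 without XGFP+ replicate 4 or XGFP− replicate 1 or 2, and 2 without XGFP+ replicate 1 or 3 or XGFP− replicate 3. Zfp445 was also lost without EpiLC replicate 2, 3 or 4 or any ESC library (adjusted p up to 0.00143). Among 16 genes of PRC1.6 and related repressors, which silence germ line promoters, 3 rose and 4 fell, and the 3 were 1 without XGFP+ replicate 2 or 4 or XGFP− replicate 2. Ring1, a ubiquitin ligase of PRC1, rose from 384 to 689.9. L3mbtl2 fell from 6177 to 4052, E2f6 rose from 994 to 1251, a call lost without XGFP+ replicate 2 or 4 or XGFP− replicate 2 (adjusted p up to 0.00123), and Mga was at 21117 and 20434.

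**Figure D5:**
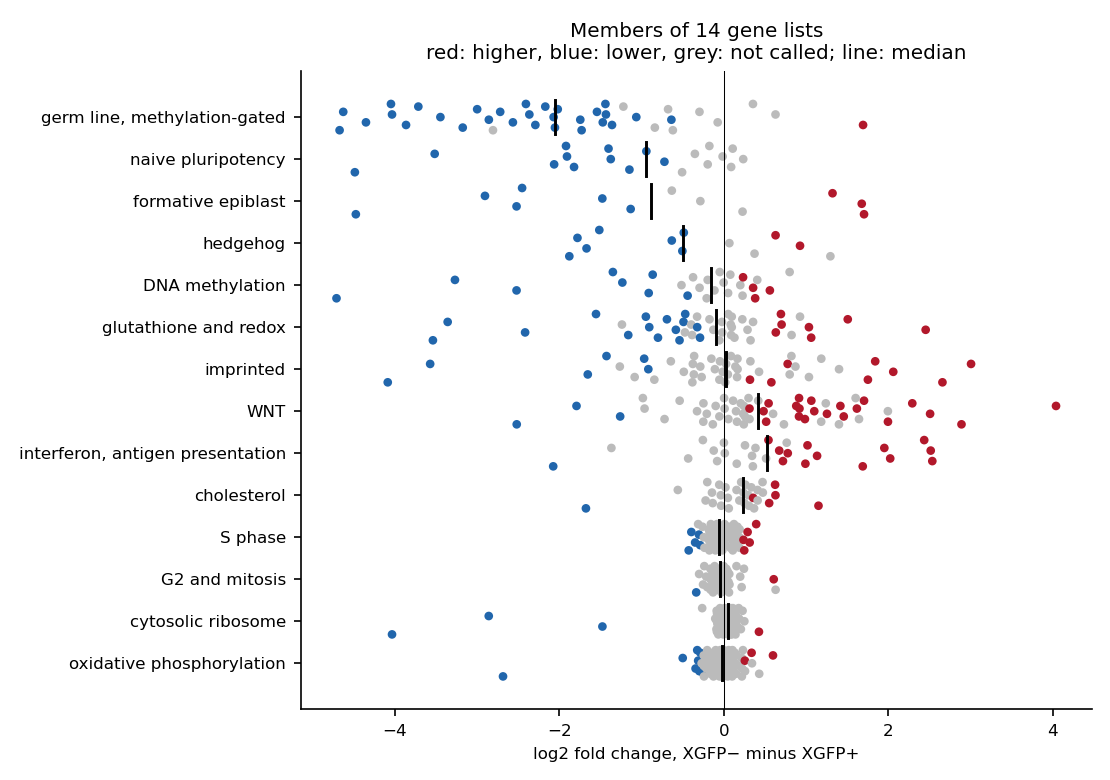
Difference between XGFP− and XGFP+ PGCLCs on the log2 scale (horizontal) for the tested members of 14 gene lists (rows), with points coloured by call and a line at the median of each list. The germ line list lies lowest, with 29 of 39 members that fell and a median of −2.05.

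Genes of naive pluripotency, the state of ground-state stem cells, fell or were not called. Of 19 tested none rose (1 at an unadjusted p below 0.05) and 11 fell, with a median of −0.94. Fgf4, the stem cell's own FGF, had 869.7, 1001, 346 and 518 normalized counts in XGFP+ and 49.4, 64.01, 42.3 and 63.9 in XGFP− libraries, and fell by 3.51 ± 0.25 (adjusted p = 3.8e-09). Dppa5a, an RNA-binding protein of stem cells, had 31031, 32117, 28294 and 28200 in XGFP+ and 5089, 8632, 5982 and 9936 in XGFP− libraries, and fell by 2.06 ± 0.19 (adjusted p = 7.1e-08). Zfp42 (REX1) fell 2.61-fold from 15045 to 5757. Tfcp2l1, a naive factor, had 16448, 16953, 13355 and 16358 in XGFP+ and 8291, 9426, 9862 and 10700 in XGFP− libraries (difference −0.72 ± 0.15, adjusted p = 0.00059), a call lost with the replicate number as a block (0.00102) and without any of XGFP+ replicates 1, 2 and 4 and XGFP− replicates 1, 2 and 3 (0.00157 to 0.00312). Mybl2 was the most abundant member without a call, at 16445 and 14554, and Nanog was at 12047 and 10077 (adjusted p = 0.0232, or 0.000668 with the replicate number as a block in the 8 PGCLC libraries). Genes of the formative epiblast moved both ways, with 3 of 12 that rose and 6 that fell. Fgf5 rose from 165 to 518 and Sall2 from 81.3 to 207, while Zic5 fell from 522 to 91.3 and Zic2 from 553 to 191. Both sorts were below the EpiLC means of 3551, 3964, 2139.5 and 2279.

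WNT pathway genes rose more often than they fell. Of 57 tested 21 rose and 3 fell, with a median of 0.42. Receptors made up 11 of the increases among 18 tested, and 7 of 10 Frizzled genes rose and none fell (none at an unadjusted p below 0.05, median 0.90). Fzd8 had 349, 332, 369 and 288 normalized counts in XGFP+ and 964, 982, 793 and 843 in XGFP− libraries, and the more abundant Fzd10 had 1242, 1118, 1286 and 1038 in XGFP+ and 2316, 2202, 2277 and 1841 in XGFP− libraries. Neither overlapped between the sorts (differences 1.42 ± 0.12 and 0.88 ± 0.14, adjusted p = 3.9e-08 and 3.7e-05). The R-spondin receptor Lgr5 had 0, 7.51, 0 and 10.7 in XGFP+ and 49.4, 59.9, 52.9 and 43.3 in XGFP− libraries and rose (adjusted p = 4.9e-05), and the far more abundant Lgr4 rose 1.24-fold from 8939.7 to 11095. Ror2, a receptor for WNT5A, rose from 813 to 1538.

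Among WNT ligands, Wnt3, which the epiblast uses to start the primitive streak and germ cells, had 134.2, 143.9, 185 and 199.7 normalized counts in XGFP+ and 484, 512, 404 and 413 in XGFP− libraries (difference 1.46 ± 0.23, adjusted p = 3.9e-05), below its EpiLC mean of 1330.2. Lef1, a nuclear partner of beta-catenin, had 899.6, 752, 758 and 705 in XGFP+ and 2689.9, 2557, 2478 and 2412 in XGFP− libraries and rose by 1.71 ± 0.17 (adjusted p = 3.1e-07). Axin2, a feedback inhibitor and common WNT target, had 685, 573, 571 and 369 in XGFP+ and 1428, 1238, 1144 and 869.9 in XGFP− libraries and rose by 1.10 ± 0.18 (adjusted p = 7.5e-05). The sorts did not overlap for any of these. Of 15 inhibitors 5 rose and 3 fell. Rnf43, which removes Frizzled from the surface, rose 6.02-fold, the secreted inhibitor Sfrp1 rose from 880.3 to 2127, the DKK receptor Kremen1 rose from 798 to 1673, and Sfrp2 fell from 226 to 91.1. Ctnnb1 (beta-catenin) was at 29314 and 29566 and was not called.

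Of antigen presentation and interferon-related genes nearly as many rose as were not called. Of 28 listed genes tested 13 rose and 1 fell, with a median of 0.53. Of 11 listed genes of MHC class I 6 rose and none fell (none at an unadjusted p below 0.05). The list leaves out the class I gene H2-M5 of the chromosome 17 block, which fell. H2-K1, a classical class I heavy chain, had 235, 228, 171 and 197 normalized counts in XGFP+ and 1217, 1371, 827 and 1146 in XGFP− libraries, a rise of 2.44 ± 0.20 (adjusted p = 1.7e-08), with 909.9 in EpiLCs and 917 in ESCs. H2-Q4 rose from 58.7 to 237, and the class I genes are close enough in sequence to share reads. B2m, the light chain of class I molecules, had 40.8, 61.3, 43.1 and 41.2 in XGFP+ and 110.1, 112.8, 95.2 and 91.7 in XGFP− libraries and rose by 1.14 ± 0.13 (adjusted p = 1.6e-06), and stayed below the EpiLC and ESC means of 393 and 423. Ifitm3 (fragilis), an interferon-induced membrane protein and early germ cell marker, had 4241, 4054, 4184 and 3612 in XGFP+ and 8705, 8518, 7282 and 7555 in XGFP− libraries and rose by 0.99 ± 0.093 (adjusted p = 1.1e-07). Bst2, an antiviral tether, rose from 491 to 992. Ifitm2 was at 6449 and 8181, not called (adjusted p = 0.00286, or 0.00012 with the replicate number as a block and 0.000239 without EpiLC replicate 1). Irf1, an interferon regulatory factor, rose from 2118 to 3104, a call lost without XGFP+ replicate 1 or 2 or XGFP− replicate 1, 2 or 4 (adjusted p up to 0.00203). Parp12, an interferon-induced ADP-ribosyltransferase, rose from 957 to 2012, among 12 Parp genes of which 4 rose and 1 fell. Oas1a, a sensor of double-stranded RNA, was the listed gene that fell, from 173 to 41.1. Its relatives Oas2 and Oas3, which the list leaves out, also fell. They lay in a run of 4 neighbouring genes that fell, with differences from −2.38 to −1.73.

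Genes of ciliary transport and of motile cilia were looked at by family. The Ift and Dnah families were picked for their high shares of calls among gene-name families, which in part fixes their counts. Of 14 genes of intraflagellar transport named Ift, 7 rose and none fell (none at an unadjusted p below 0.05), 13 of 14 differences were above 0, and the median was 0.37. Ift81 had 812, 741, 928 and 796 normalized counts in XGFP+ and 1650.0, 1610.4, 1588 and 1538 in XGFP− libraries, and Ift172 had 956, 899, 946 and 952 in XGFP+ and 1906, 1746, 1879 and 1607 in XGFP− libraries. Both rose without overlap (differences 0.97 ± 0.096 and 0.92 ± 0.094, adjusted p = 2.2e-07 and 2.8e-07), and XGFP− PGCLCs had the highest mean of the 4 groups for both. Ift88 rose from 945 to 1356, and Bbs1, of the BBSome that carries receptors in cilia, was the 1 of 8 Bbs genes that rose, from 379 to 774. Axonemal dynein heavy chains, the motors of motile cilia, had 5 of 11 Dnah genes that fell and none that rose with limma (2 at an unadjusted p below 0.05, while edgeR and DESeq2 each called 2 as higher), with a median of −1.39. Dnah8 had 2942, 3016, 1470.2 and 2277 in XGFP+ and 432, 408, 394 and 357 in XGFP− libraries (difference −2.55 ± 0.19, adjusted p = 6.4e-09), and Dnah10 had 122.4, 96.4, 94.8 and 114.6 in XGFP+ and 3.47, 12.2, 3.85 and 9.28 in XGFP− libraries (difference −3.87 ± 0.30, adjusted p = 1.2e-08).

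Hedgehog signalling, which runs through the primary cilium, held 12 tested genes, of which 2 rose and 7 fell (median −0.49). Ptch1, the main receptor, fell from 1354 to 954. The effector Gli2 had 309, 359, 147 and 154 in XGFP+ and 94.5, 86.4, 62.5 and 34.01 in XGFP− libraries and fell by 1.78 ± 0.32 (adjusted p = 0.00017), while Gli3, which acts largely as a repressor, had 1653, 1204, 1648 and 1228 in XGFP+ and 3063, 2519, 3091 and 2214 in XGFP− libraries and rose by 0.93 ± 0.14 (adjusted p = 3.6e-05). The co-receptor Cdon rose from 1494 to 2313, and Hhip, a decoy for the ligand, was at 110.8 and 112.1. Sufu, an inhibitor of GLI proteins, fell from 176 to 114.8, a call that was lost without any PGCLC library but XGFP+ replicate 1 and XGFP− replicate 3 (adjusted p from 0.00114 to 0.00223) and with the block in the 8 PGCLC libraries (0.00178). The 7 decreases were 2 in the 8 PGCLC libraries alone, where Gli2 was not called (adjusted p = 0.00142), and 4, 3 and 4 without XGFP+ replicate 1, XGFP+ replicate 2 and XGFP− replicate 2.

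Genes of peroxide removal and glutathione synthesis fell or, for the most part, were not called. Of 23 genes 1 rose and 11 fell, with a median of −0.38. Cat, the catalase that splits hydrogen peroxide, had 1651, 1477, 1527 and 1443 normalized counts in XGFP+ and 835, 768, 816 and 832 in XGFP− libraries, and Sod1, the cytosolic superoxide dismutase, had 7917, 7629.9, 6627 and 6202 in XGFP+ and 4142, 4199, 3790.4 and 4098 in XGFP− libraries. Neither overlapped, and both fell (differences −0.91 ± 0.068 and −0.80 ± 0.073, adjusted p = 8.1e-09 and 8.2e-08). Gpx1, a glutathione peroxidase, fell from 10096 to 6256 and Nqo1, a quinone reductase, from 779 to 344. Gclc, the catalytic subunit of the first enzyme of glutathione synthesis, was the gene that rose, with 3473, 3595, 3756 and 3686 in XGFP+ and 5535, 5544, 5547 and 5874 in XGFP− libraries (difference 0.63 ± 0.048, adjusted p = 8.1e-09). Prdx2, a peroxiredoxin, was at 8996 and 8862. Glutathione transferases, which join glutathione to foreign compounds, were counted by class after their values were seen. Of 5 Gsta and Gstp genes 4 fell, among them Gstp2, with 375, 489, 324 and 428 in XGFP+ and 29.5, 31.5, 27.9 and 48.4 in XGFP− libraries (difference −3.54 ± 0.20, adjusted p = 3.4e-10), and Gsta4, from 1934 to 647. Of the 16 others 6 rose and none fell (none at an unadjusted p below 0.05), among them Gstm7, from 79.98 to 224, and Gstt2, from 211 to 428. Gstk1 rose from 449 to 938, a call lost without XGFP+ replicate 2 or 4 or XGFP− replicate 1 or 2 (adjusted p up to 0.00146). Members of a class are similar in sequence and may share reads.

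Zinc genes other than Slc39a8 changed in either direction or were not called. Of 25 zinc genes tested, Slc39a8 included, 4 rose and 3 fell, against 11.7% and 11.6% of all genes. Of 12 importers, Slc39a8 among them, 3 rose and 1 fell, of 9 exporters 1 rose, and of 4 metallothioneins 2 fell. The importer Slc39a3 rose from 205 to 419 and Slc39a1 from 1898 to 2676, Slc39a4 fell from 572 to 309.7, and Slc39a14, the nearest relative of Slc39a8, was at 6221 and 7231, not called, although the block fit of the 8 PGCLC libraries called it (adjusted p = 0.000364). Mt2, a metallothionein that binds zinc and is induced by it, had 4103, 3914, 3711 and 3730.3 normalized counts in XGFP+ and 1964, 1749.6, 1760.1 and 1437 in XGFP− libraries and fell by 1.17 ± 0.12 (adjusted p = 5.2e-07). Mt1, its neighbour, fell from 3739 to 2277, a call lost in the 8 PGCLC libraries alone and without XGFP+ replicate 1, 2 or 3 or XGFP− replicate 2 or 4 (adjusted p from 0.00122 to 0.00254).

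Of the tubulins about as many fell as were not called. Of 17 tubulin genes none rose with limma (2 at an unadjusted p below 0.05, none with edgeR, 1 with DESeq2) and 9 fell, and of 9 keratins 2 rose and 1 fell. Tubb3, a beta tubulin typical of neurons, had 2222, 1956, 1661 and 1527 normalized counts in XGFP+ and 369, 366, 323 and 317 in XGFP− libraries, and fell by 2.41 ± 0.17 (adjusted p = 3.5e-09). Tuba3b and Tuba3a are near-identical alpha tubulins of the germ line whose reads can be split. Tuba3b had 337, 477, 313 and 379 in XGFP+ and 9.53, 10.2, 12.5 and 27.8 in XGFP− libraries, and Tuba3a 297, 462, 354 and 588 in XGFP+ and 17.3, 30.5, 18.3 and 56.7 in XGFP− libraries. Both were far lower in the XGFP− sort, in which replicate 4 was highest. Tubb5, the most abundant tubulin, was at 67702 and 57140, not called (adjusted p = 0.00152, or 0.00055 with edgeR, 0.000495 with the replicate number as a block and 0.000972 without EpiLC replicate 1). Krt18 had 83.4, 108.9, 94.8 and 113.7 in XGFP+ and 357, 467, 246 and 241 in XGFP− libraries and rose by 1.66 ± 0.23 (adjusted p = 9.6e-06). Its partner Krt8 rose from 61.6 to 209, a call lost with edgeR, in the 8 PGCLC libraries alone, and without XGFP+ replicate 1 or 3, XGFP− replicate 1, 2 or 4, EpiLC replicate 2 or 3, or ESC replicate 1 or 4 (adjusted p from 0.00104 to 0.00393). Both keratins were below their EpiLC means of 1618 and 2392.

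Genes of migration, matrix and adhesion changed in both directions, to be read against 11.7% and 11.6% of all genes. Of 13 genes of migration and homing 5 rose and 1 fell, the latter (Kitl, the ligand of KIT) not called without XGFP+ replicate 1 or 2 or XGFP− replicate 2, 3 or 4 (adjusted p up to 0.00211). Cxcr4, the receptor by which germ cells follow CXCL12 to the gonad, had 418, 315, 487 and 298 normalized counts in XGFP+ and 1679, 1661, 1791 and 1707 in XGFP− libraries and rose by 2.20 ± 0.22 (adjusted p = 2.3e-07), with 26 in EpiLCs and 42.1 in ESCs. The guidance ligand Slit3 rose from 202 to 478, Cxcl12 itself from 11.4 to 85.8, and Cdh1 (E-cadherin) was at 6189 and 6632. Among 23 integrins 1 rose and 5 fell. Itgb8 had 15.4, 27.5, 22.02 and 26.9 in XGFP+ and 200.2, 219, 169 and 179 in XGFP− libraries and rose by 3.04 ± 0.22 (adjusted p = 4.3e-09). Itga6, a laminin receptor, had 2072, 2164, 2077 and 2173 in XGFP+ and 549, 695, 843 and 871 in XGFP− libraries and fell by 1.54 ± 0.10 (adjusted p = 2.4e-09), and Itga9 fell 7.61-fold. Among 10 laminin chains 4 rose and 1 fell, with Lamb1 up from 1685 to 5256. Of 32 collagens 1 rose and 9 fell, and Cdh3 (P-cadherin) was at 9574 and 10866.

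Of 32 genes of ERK feedback and ERK targets 8 rose and 5 fell, or 9 with DESeq2, with a median of 0.11. Of 13 ERK phosphatases and Sprouty family genes 4 rose and none fell with limma (1 at an unadjusted p below 0.05, none with edgeR, 1 with DESeq2). Dusp6, a phosphatase of ERK, had 1304, 1228, 1630.1 and 1296 normalized counts in XGFP+ and 2779, 2928, 2664 and 2977 in XGFP− libraries, and Spred1, an inhibitor of RAS to RAF signalling, had 1195, 1146, 1194 and 1138 in XGFP+ and 2689.9, 2732, 2342 and 2347 in XGFP− libraries. Both rose without overlap (differences 1.06 ± 0.14 and 1.11 ± 0.16, adjusted p = 5.2e-06 and 2.2e-05). Of 12 transcription factors of the list 3 rose and 1 fell, and of 7 other targets 1 rose and 4 fell (median −0.91). Fos rose from 84.4 to 192 and Ier3 from 68.3 to 177. The ETS factor Etv4 fell from 270.2 to 127.01, the cytokine Lif from 374 to 160.3, and Etv5 was at 13111 and 10352, not called (adjusted p = 0.00114), although it passed with edgeR (0.000923), with DESeq2 (0.000171), without XGFP− replicate 4 (0.000174) and with the block in the 8 PGCLC libraries (0.000467). Ccnd1 (cyclin D1) had 230.3, 262, 84.2 and 122.7 in XGFP+ and 38.1, 25.4, 21.2 and 20.6 in XGFP− libraries and fell by 2.58 ± 0.26 (adjusted p = 2.7e-07), against 7778 in EpiLCs.

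Genes of the cell cycle were counted by phase, to be read against 11.7% and 11.6% of all genes. Among 30 cyclins, kinases and brakes of G1, 8 rose and 7 fell, of 59 genes of DNA replication 5 rose and 5 fell, and of 42 genes of G2 and mitosis 1 rose and 1 fell. Ccne1 (cyclin E1), which drives entry into S phase, had 2892, 2524, 2448 and 2474 normalized counts in XGFP+ and 1307, 1308, 1231 and 1333 in XGFP− libraries and fell by 0.99 ± 0.069 (adjusted p = 3.2e-09). Cdk6, a partner of D cyclins, had 487, 426, 433 and 395 in XGFP+ and 1157, 1137, 974 and 863 in XGFP− libraries and rose by 1.24 ± 0.12 (adjusted p = 1.4e-07), and Cdk4 was at 11495 and 10166, not called with limma or edgeR (adjusted p = 0.000246 with DESeq2). The antiproliferative genes Btg1 and Btg2 rose from 1774 to 2662 and from 311 to 596, and Rbl2 (p130), a pocket protein of resting cells, fell from 402 to 211. The replication genes that rose were 3 without XGFP+ replicate 2, XGFP− replicate 2, 3 or 4 or EpiLC replicate 3. Those that fell were 2 or 3 without any PGCLC library but XGFP− replicate 3, and 8 without ESC replicate 2 or with the replicate number as a block. In G2 and mitosis 3 rose without XGFP− replicate 3, and 3 fell without XGFP− replicate 4 and none without any other PGCLC or EpiLC library or ESC replicate 1, 2 or 3. Of 18 genes of the BCL2 family and caspase control 5 rose and 2 fell, with the survival gene Bcl2l2 up from 431 to 834 and the pore former Bak1 down from 473 to 229. The 5 were 2 without XGFP+ replicate 1 or 2 or XGFP− replicate 1 or 2, and 3 without XGFP− replicate 3. Of 16 genes of the p53 response none rose (2 at an unadjusted p below 0.05) and 2 fell, with Trp53 at 9034 and 8029 and Cdkn1a at 601 and 542.

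Among 31 genes of cholesterol synthesis and uptake 5 (16.1%) rose and 1 (3.23%) fell, against 11.7% and 11.6% of all genes, with a median of 0.24. Dhcr7, the last enzyme of the pathway, had 824, 731, 786 and 738 normalized counts in XGFP+ and 1253, 1074, 1335 and 1101 in XGFP− libraries (difference 0.62 ± 0.08, adjusted p = 4.5e-06). Sqle, an early sterol enzyme, rose from 4946 to 7587, and Npc1, which exports cholesterol from lysosomes, from 2383 to 3498. Hmgcs1 was at 6219.6 and 8625, not called (adjusted p = 0.00162, or 0.000454 with the replicate number as a block, 0.000889 without XGFP+ replicate 3, 0.00075 without EpiLC replicate 4 and 0.000456 without ESC replicate 2). The count of 5 was 14 with the block in the 8 PGCLC libraries, 8 without XGFP+ replicate 3, and 3 without any other PGCLC library but XGFP− replicate 4.

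Large groups of housekeeping genes are given by their counts, to be read against 11.7% and 11.6% of all genes. Of 75 cytosolic ribosomal protein genes 1 rose and 3 fell, among the latter the testis-type paralogues Rpl10l and Rpl39l, which were named after their values were seen. Rpl10l fell from 654 to 44.5 and Rpl39l from 1779.8 to 274. Of 76 mitochondrial ribosomal genes 2 rose and 5 fell, of 87 genes of oxidative phosphorylation 3 rose and 8 fell, of 38 proteasome genes none rose (none at an unadjusted p below 0.05) and 3 fell, and of 57 clustered histone genes 2 rose and 3 fell. Of 35 genes of ATF4 and amino acid supply 1 rose and 4 fell, of 20 chaperones none rose (2 at an unadjusted p below 0.05, 1 called with the block) and 3 fell, and of 29 lysosome and autophagy genes 2 rose and 3 fell. Of 15 insulin-like growth factor genes none was called with limma or edgeR, DESeq2 called 2 as higher, the block fit 1, and 5 had an unadjusted p below 0.05. Without ESC replicate 2, 7 ATF4 genes fell in place of 4, and leaving out 1 library moved the counts of mitochondrial ribosome genes to as few as 1 and 2, of oxidative phosphorylation genes that rose to 1, and of lysosome genes to 1 and 1.

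Other signalling lists had calls in both directions, to be read against 11.7% of all genes that rose and 11.6% that fell. The NOTCH list was near these shares. Of 50 genes of BMP and TGF beta signalling 8 rose and 9 fell, and the 8 were 14 with DESeq2. The ligand Bmp7 had 701, 601, 811 and 655 normalized counts in XGFP+ and 2198, 1920.3, 1943 and 1832 in XGFP− libraries and rose by 1.52 ± 0.13 (adjusted p = 4e-08), above all EpiLC and ESC libraries on average (257 and 203). Tgfbr3, a co-receptor, rose from 66.1 to 291, while Eng, another co-receptor, fell from 469 to 186 and Tdgf1, the co-receptor of NODAL, from 2669 to 1251. In the NOTCH list of 18 genes 2 rose and 2 fell. The ligand Dll1 rose from 108.6 to 593 and the receptor Notch4 fell from 317 to 77.5. Notch3 rose from 892 to 1510.1, a call lost without XGFP+ replicate 1, 2 or 4 or XGFP− replicate 1 or 2 (adjusted p up to 0.00247). Of 19 retinoic acid genes 2 rose and 1 fell, the receptor Rarg, from 772 to 251. Of 17 FGF genes 2 rose and 3 fell, and 1 rose with the replicate number as a block and without XGFP+ replicate 1 or 4 or XGFP− replicate 1, 2 or 3.

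Guidance cues and their receptors changed in both directions, with 10 of 45 genes that rose and 10 that fell, against 11.7% and 11.6% of all genes. Of 19 semaphorins 7 rose and 4 fell, and of 9 plexins and neuropilins, their receptors, none rose with limma (3 at an unadjusted p below 0.05, none with edgeR, 2 with DESeq2) and 2 fell. Sema3a had 56.2, 80.1, 64.1 and 61.8 normalized counts in XGFP+ and 394, 335, 340.5 and 281 in XGFP− libraries and rose by 2.35 ± 0.36 (adjusted p = 3e-05). Nrp2, a neuropilin that binds class 3 semaphorins, had 549.5, 339, 191 and 174 in XGFP+ and 41.6, 82.3, 66.4 and 51.5 in XGFP− libraries and fell by 2.24 ± 0.29 (adjusted p = 5e-06). The sorts did not overlap for either. Of 11 Eph receptors 3 rose and 3 fell, and of 6 ephrins none rose (none at an unadjusted p below 0.05) and 1 fell. Sema3c rose from 98.5 to 447, and Plxna1 fell from 4939.6 to 1897.

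Of 27 glycolysis genes 4 (14.8%) rose and 2 (7.41%) fell, near the 11.7% and 11.6% of all genes. Of the 14 of uptake and the upper steps 3 rose and 2 fell. With the block in the 8 PGCLC libraries 9 of the 27 rose and 5 fell. Pfkp, the platelet form of phosphofructokinase, had 9941, 10759, 8703 and 12235 normalized counts in XGFP+ and 2815, 3248, 2728 and 4608 in XGFP− libraries and fell by 1.66 ± 0.18 (adjusted p = 7.6e-07), while Pfkm, the muscle form, had 1453, 1289, 1454 and 1268 in XGFP+ and 2792, 2349, 2628 and 2001 in XGFP− libraries and rose by 0.83 ± 0.089 (adjusted p = 5.3e-07). Pfkp was 22084 in ESCs and 2292 in EpiLCs, and Pfkm 1050.1 and 1413. Hk1, a hexokinase, fell from 4096 to 2016, the muscle enolase Eno3 rose from 193 to 449, and Pkm, which makes pyruvate, was at 54272 and 51367, not called.

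Among transcription factors of patterning, 14 of 91 rose and 15 fell, and the 14 were 22 with the block in the 8 PGCLC libraries. These counts and those that follow are to be read against 11.7% and 11.6% of all genes. Sox21 fell from 171 to 57.7, a call lost without XGFP+ replicate 1 (adjusted p = 0.00104). HOX genes had 6 tested, of which none rose (none at an unadjusted p below 0.05) and 2 fell, and of 12 T-box genes none rose (3 at an unadjusted p below 0.05) and 4 fell. Of 14 KLF genes, the family of Klf9, 2 rose and 4 fell, among the latter Klf4, from 315 to 164, and Klf3, from 776 to 515. Of 7 SP genes, the family of Sp8, only Sp8 was called with limma and edgeR, DESeq2 and the block over 16 libraries also called Sp6, named for this after its value was seen, as lower (adjusted p = 0.000119 and 0.000213), and the ubiquitous Sp1 was at 11770 and 11650. All 4 tested genes that share the name Dppa fell, a group counted after its values were seen. It includes Dppa3 and Dppa5a, which were counted in lists above. Of 257 solute carriers 39 rose and 37 fell, near the background, with the sodium/calcium exchanger Slc8a2 up from 145 to 557 and the nucleoside carrier Slc29a1 down from 3047 to 1069.7. Of 43 potassium channels 6 rose and 8 fell, the 6 being 3 without XGFP− replicate 2. The Myo and Dock families were picked for their high shares of genes that fell. Of 22 myosins named Myo 1 rose and 8 fell, among them Myo7a, from 38.3 to 5.10. Of 10 Dock genes 2 rose and 4 fell, among them Dock4, from 136.3 to 35.7.

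Markers of other cell types moved with the contrast in part. Of 68 markers of endoderm, mesoderm, blood and endothelium, neuroectoderm, trophoblast and fibroblasts, 38 were tested, 10 rose and 5 fell (3 without XGFP+ replicate 2 or XGFP− replicate 2), and 28 were not in the table, among them the defining markers Sox17, Gata6, Afp, Ttr, Mesp1, Hand1, Hbb-bh1 and Postn. The summed level of the 38 ran from 5625 to 6478 in XGFP+ and from 6785 to 7519 in XGFP− libraries. Endoderm markers summed to 111.1 to 167 in XGFP+ and 390 to 490 in XGFP− libraries, of which Cubn, an endocytic receptor of visceral endoderm and gut, rose from 32.7 to 252. Of the 6 endoderm markers 2 rose and 1 fell, and 4 of the 6 differences were below 0. Blood and endothelial markers summed to 145 to 178 and 387 to 440, of which Cdh5 (VE-cadherin) rose from 48.8 to 194 with 1.88 in EpiLCs. Of these 6 markers only Cdh5 was called, and 3 of the 6 differences were below 0. Trophoblast markers summed to 731 to 785 and 1394 to 1803, of which the keratins Krt8 and Krt18 rose. The sums of mesoderm (105.1 to 131.1 and 93.8 to 105.7), neuroectoderm (3416 to 3978 and 3294 to 3664) and fibroblast markers (1021 to 1334 and 1035 to 1455) were closer. Single markers within these sums still changed. Of 6 fibroblast markers 3 rose and 1 fell, while Fbln1, the most abundant of them, was at 1151 and 1118, not called. Of 7 neuroectoderm markers 1 rose and 1 fell, the latter Tubb3, from 1841.5 to 343.9. Of 7 mesoderm markers 1 rose and 2 fell. The part of such cells in the results above was not tested.

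The share of reads from the mus genome on chromosome 13, an autosome for which the authors deposited allelic fractions, did not give a stable difference. Library medians lay between 0.494 and 0.506 in both sorts. Of 229 genes with a mean normalized count above 100 and a fraction above 0 and below 1 in every library, 3 were called (1.31%), all at an adjusted p of 0.00074. Dip2c had a mean fraction of 0.539 in XGFP+ and 0.673 in XGFP− libraries, Golm1 of 0.200 and 0.0910, and Zfp934 of 0.137 and 0.224. None of the 3 was called in the 8 PGCLC libraries alone, with the replicate number as a block (adjusted p = 0.0035), or without any PGCLC library but XGFP+ replicate 1, where 1 was called. With limma 47 genes had an unadjusted p below 0.05, and 48 in the 8 PGCLC libraries. The fractions come without read numbers, so that their counting error is unknown.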

How the data were processed

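RNA-seq libraries were read from the table of bulk values, in which, per the labels and the study's methods, the authors aligned reads with STAR to mm10 with strain SNPs masked, kept reads through a WASP filter, counted them per gene with HTSeq 0.6.1 and divided by a DESeq2 size factor (the submitters' notes name version 1.16). The deposited values are thus a normalized count signal, 1 column per library. The annotation and strand setting were not given in the sources used here. The deposited allelic fraction is the share of mus reads per gene, given without read numbers, so its depth is unknown.

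Differences were XGFP− minus XGFP+ on log2(value + 1), from limma 3.58.1 in R 4.3.3 with a mean-variance trend over all 16 libraries, for the 16281 genes with a mean above 10, adjusted by Benjamini-Hochberg and called below an FDR of 0.001. A log2 difference on this scale understates the change of low genes. Because the values were not counts, limma was the first test. Dividing each column by its smallest step gave whole reads for 100% of the values (within 0.01), and edgeR 4.0.16 (quasi-likelihood, TMM) and DESeq2 1.42.0 (Wald) were run on them as alternatives. Reads on genes were 29.8 to 44.0 M in the 8 PGCLC libraries. Other alternatives were the pseudocount, the filter, quantile normalization, the 8 PGCLC libraries alone, each library left out, a fold limit and a replicate block. When tested on simulated counts for 16281 genes of which 200 were changed, the 3 tools each recovered 100% of 2-fold changes, and of 1.5-fold changes limma 72.5%, edgeR 84.5% and DESeq2 82.5%. The simulation gave all genes the same dispersion and changed only genes with a mean above 100. It therefore does not show the recovery for weaker or more variable genes.

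Symbols and positions came from GENCODE vM21 (GRCm38/mm10), which named 16103 of 16335 IDs. Groups came from the labels. Nothing in the labels says that the 4 replicates of a group were separate cultures, so p-values measure the spread between these libraries, which may be technical. After removal of group means, libraries of both groups that share a number correlated at 0.253, 0.135, 0.200 and 0.307, against −0.109 to −0.041 on average for other numbers. Removal of group means by itself makes the values for other numbers negative where those for shared numbers are positive. The former are thus no separate reference. The pairing was taken from these data, and values with the replicate block are given where they changed a call.

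The genes, lists and blocks were chosen with earlier results of these data known. Named genes were the 4 markers; the 10 largest non-overlapping increases and decreases with a mean above 100; per list and direction the 3 largest called members with such a mean and the most abundant uncalled member, not all of which are printed; members of the gene-name families with the highest shares of calls; and the 5 largest chromosome 13 differences. Members of chromosomal blocks, miRNA genes and a few others, such as Mael, Ddx4, Slc25a31, Lgr5, Ift88, Cxcl12 and Kitl, were added after their values were seen. The single-cell tables and 4 NPC columns of another study were not used. Some items are not reported here.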

Additional observations from a re-analysis of the deposited data

Results flagged for a closer look

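Among the genes named above, 434 groups of 4 PGCLC libraries were checked for a library set apart by Dixon's ratio at its 95% critical value, and 19 (4.38%) passed it, where chance gives about 1 in 20. All values are normalized counts.

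Of the XGFP− libraries, replicate 4 stood low for Maml3 (199, the others 253 to 257), Gstt2 (335) and Zfp445 (2351), and high for Tuba3b (27.8), Slc25a31 (31.95), Gclc (5874), Rbl2 (229.8) and Rpl10l (89.7). Replicate 3 stood low for Gsta4 (582) and Pkm (32705, the others 56642 to 59162), and high for Itga9 (57.7) and Airn (36.5). Replicate 2 stood high for H2-M5 (7.11).

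Of the XGFP+ libraries, replicate 3 stood low for the pluripotency genes Tfcp2l1 (13355, the others 16358 to 16953) and Prdm14 (3019, the others 3511 to 3583). Replicate 2 stood high for B2m (61.3) and Dlk1 (5.01). Replicate 1 held 0.907 for Mir496a and 0.907 for Mir3072, both listed at 0 in the other XGFP+ libraries.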

How the results depend on the processing

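Called autosomal genes numbered 1330 to 1894 higher and 1445 to 1816 lower with 1 library left out, against 1786 and 1782. They fell to 632 and 1032 when a log2 difference above 1 was also required, and were 1942 and 1909 with the replicate block, 1800 and 1860 with edgeR, 2491 and 2207 with DESeq2, 1821 and 1568 in the 8 PGCLC libraries alone, and 2655 and 2204 there with the block. Of the main calls, 95% were shared with edgeR, 98.7% with DESeq2 and 83.6% with the 8 libraries alone, with the same direction. On chromosome 13, 0 genes had a called allelic fraction in the 8 libraries alone, 0 with the replicate block, 20 at an FDR below 0.05, and 0 to 1 with 1 PGCLC library left out, against 3. The causes were not tested.

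Of 181 called genes checked among those named, 156 kept their call under every alternative other than the fold limit and 0 turned direction. The replicate block over 16 libraries changed the call of Zfp984, Tfcp2l1, Ifitm2, Tubb5, Hmgcs1 and Sp6 and of no other gene checked. Among 86 counts of list members, 7 moved by more than 1.5 times with edgeR, 17 with DESeq2, 15 in the 8 PGCLC libraries alone, and 7 and 29 with the block over 16 and 8 libraries. Genes that were not called turned sign. With edgeR, Ctnnb1 was at −0.0101, and with quantile normalization Igf2r was at 0.0317, Mga at 0.0260, Pkm at 0.0322 and Sp1 at 0.0274. With 1 library left out, the log2 difference ran from −0.0236 to 0.0469 for Ctnnb1, −0.0825 to 0.0101 for Mga, −0.105 to 0.214 for Hhip, −0.0541 to 0.00815 for Prdx2, −0.120 to 0.0277 for Fbln1, −0.252 to 0.112 for Pkm and −0.0489 to 0.0335 for Sp1.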
